A study of Mus musculus with 18 samples.

Results

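The 10 genes described here encode the ligands of transforming growth factor beta (Tgfb1, Tgfb2 and Tgfb3), their receptors (Tgfbr1, Tgfbr2 and Tgfbr3), latent TGF-beta binding proteins (Ltbp1, Ltbp2 and Ltbp3) and Tgfbi, a matrix protein induced by TGF-beta. They were chosen by symbol from the 38243 genes in the count files, and all 10 symbols were found. RNA was measured in 18 libraries from 6 female mouse embryos of the C57BL/6 strain at embryonic day 16.5. In the study's model of Apert syndrome, 3 embryos carried 1 Fgfr2 allele that encodes the S252W receptor (Fgfr2+/S252W), and the 3 controls were Fgfr2+/+ littermates. Laser capture microdissection gave 1 library each of mandibular bone, Meckel's cartilage (MC) and mandibular condylar cartilage per embryo, so that each of the 6 groups holds 3 embryos, which were not pooled. Genotype was read from tail DNA, and a captured region can hold several cell types.

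TGF-beta ligands are secreted as inactive dimers held by their own propeptide. Latent binding proteins couple these complexes to the extracellular matrix, from which integrins and proteases can release the active ligand. Active ligand binds the type II receptor Tgfbr2, which recruits and phosphorylates the type I receptor Tgfbr1, and Smad2 and Smad3 carry the signal to the nucleus. Tgfbr3, or betaglycan, presents ligand to the signalling receptors and binds TGF-beta 2 in particular. In the skeleton the pathway is known for coupling bone resorption to bone formation and for restraining the maturation of chondrocytes.

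Between 8218548 and 15585778 fragments were counted on genes per library, and Gm42418 alone took 24.1% to 39.4% of them in MC, against 5.58% to 9.33% in bone and 10.9% to 20.2% in condylar cartilage. Fgfr2 itself had between 192 and 278 normalized counts in Fgfr2+/+ bone and between 203 and 230 in Fgfr2+/S252W bone, and it passed no test between genotypes. Since S252W changes 1 residue, counts per gene do not check the genotype labels. Osteoblast markers (8 genes, summed) were at 14311 to 32835 normalized counts in bone, at 1581 to 4031 in MC and at 4980 to 19007 in condylar cartilage. Chondrocyte markers (8 genes) were at 31421 to 38539 in condylar cartilage and at 370 to 8922 in MC, against 91.5 to 388 in bone, and none of the 8 was at 0 in all libraries of a group, while Bglap, a marker of mature osteoblasts, was at 0 throughout MC. The MC libraries therefore held these transcripts at lower levels than the condylar cartilage did. Within each cartilage, 1 library stood farthest from the others of its group. In MC this was Fgfr2+/+ replicate 1 (correlation of 0.887 across genes with the mean of the other 2 libraries of its group). Its chondrocyte markers, at 370, were within the range of bone, and its osteoblast markers, at 4031, were the highest of MC. In condylar cartilage it was Fgfr2+/S252W replicate 3 (0.945), whose osteoblast markers, at 19007, were above those of the other 5 libraries. Results are given with and without this pair of libraries where they differ, a choice made after seeing the data. In bulk RNA of captured tissue, fewer cells of a type and less RNA per cell cannot be told apart.

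The regions upstream of Tgfb1 and Tgfb2 are shown because these ligands took opposite places in bone and condylar cartilage. Both are from a table of RefSeq promoters on GRCm38.p6, in which 8 of the 10 genes were matched, and each runs over the 250 bases before the transcription start, on the coding strand and 5′ to 3′. That of Tgfb1 is at chr7:25686752-25687001 on the plus strand, directly before the start of the gene in the files. That of Tgfb2 is at chr1:186705990-186706239 on the minus strand, and its last 3 bases are within the first exon as the files place it. Capitals mark GGGCGG, read on either strand (CCGCCC in reverse), and TATAAA, read on either strand. These motifs do not overlap.
Tgfb1: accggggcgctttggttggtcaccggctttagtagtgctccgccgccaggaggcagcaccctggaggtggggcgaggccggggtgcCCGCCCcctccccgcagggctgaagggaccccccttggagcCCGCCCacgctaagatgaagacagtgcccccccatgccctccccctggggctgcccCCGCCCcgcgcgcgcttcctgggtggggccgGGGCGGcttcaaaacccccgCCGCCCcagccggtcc
Tgfb2: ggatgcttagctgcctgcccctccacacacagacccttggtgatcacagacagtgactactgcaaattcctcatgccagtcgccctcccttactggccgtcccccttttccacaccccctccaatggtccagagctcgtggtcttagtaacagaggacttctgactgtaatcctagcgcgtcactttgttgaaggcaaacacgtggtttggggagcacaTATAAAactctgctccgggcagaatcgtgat
The Tgfb1 region held 5 GGGCGG motifs and no TATAAA, with 75.2% G and C. The Tgfb2 region held 1 TATAAA, which begins 31 bases before the start, and no GGGCGG, with 53.6% G and C. Among 32851 mouse promoters of the same length, 12.4% held TATAAA and 32.7% held GGGCGG. These matches are letters in the window and were not tested as binding sites.

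The first question of these data for the pathway is how its parts were distributed over the 3 tissues, and next whether the S252W allele changed them. Levels are given as normalized counts, which are CPM after TMM scaling, that is counts relative to the scaled total of the library. Where genes are compared with each other, the CPM is divided by exon length in kilobases (FPKM). Differences between tissues were averaged over both genotypes in limma with the embryo as a block, and genes passed where the p, adjusted by Benjamini and Hochberg across all genes, was below 0.05. The 11469 genes tested exceeded 1 FPKM in 50% or more of the libraries, and 9 of the 10 genes were among them. Ltbp2 was above 1 FPKM in the 6 MC libraries alone, and its tests are from a fit of 14881 genes with edgeR's filterByExpr, which it entered through its level in MC.

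Between bone and MC all 9 of the genes in that fit passed, with 2 higher and 7 lower in bone. Of all genes tested, 50.5% passed, 26.3% as higher and 24.1% as lower. Between bone and condylar cartilage 7 of 9 passed, 5 higher and 2 lower in bone, against 48.3% of all genes, 25% as higher and 23.4% as lower. Between condylar cartilage and MC all 9 passed, 3 higher and 6 lower in condylar cartilage, against 55.8% of all genes, 28.3% as higher and 27.6% as lower. A large share of all genes thus differed between any pair of these tissues, and passing is no mark of the pathway. The libraries of bone and MC did not overlap for 5 of these 9 genes (24.9% of all genes), those of bone and condylar cartilage for 6 (31.9%) and those of condylar cartilage and MC for 6 (29.5%). The median log2 difference over the 9 genes was -0.85 for bone against MC, 1.14 for bone against condylar cartilage and -1.71 for condylar cartilage against MC. Over all genes it was 0.021, 0.0024 and 0.014. In the order bone against MC, bone against condylar cartilage and condylar cartilage against MC, 6, 6 and 8 of the 9 genes passed in Fgfr2+/+ embryos alone and 9, 7 and 9 in Fgfr2+/S252W embryos alone. With edgeR 8, 6 and 9 passed, and with scaling to the total count 7, 7 and 8, against 74.3%, 40.4% and 63.9% of all genes on that scale. For bone against MC these 7 were 4 higher and 3 lower in bone, and 5 of them passed in the same direction as with TMM scaling, since Tgfbr2 and Ltbp1 passed in the opposite one.

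**Figure D1:**
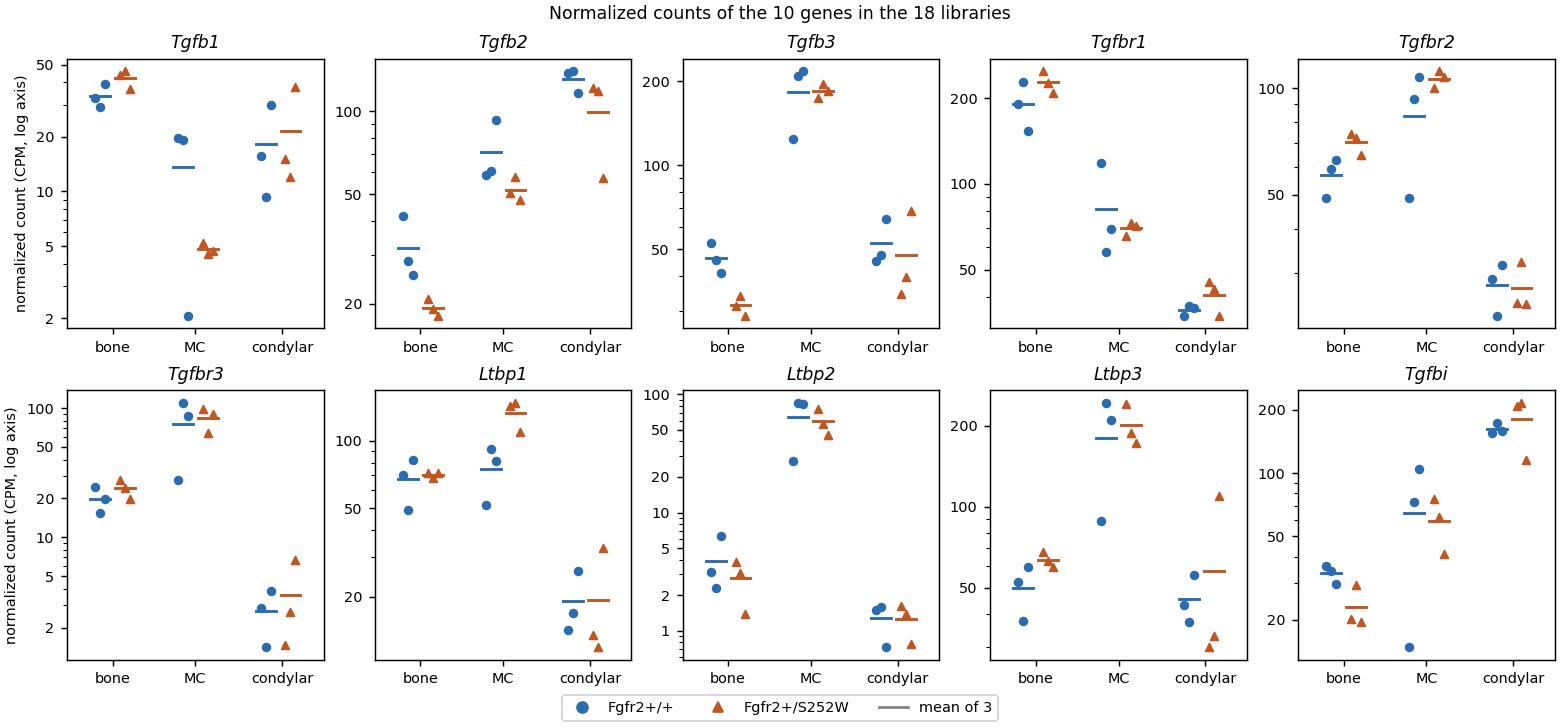
Normalized counts (CPM, log axis) of the 10 genes in each library, by tissue, with Fgfr2+/+ embryos as circles, Fgfr2+/S252W embryos as triangles and lines at the mean of 3. Tgfb1 and Tgfbr1 are highest in bone, Tgfb2 and Tgfbi in condylar cartilage, and Tgfb3, Tgfbr3, Ltbp2 and Ltbp3 in MC, where Fgfr2+/+ replicate 1 is the lowest library for each of those 4 genes.

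By median share over both genotypes, each tissue had a different leading ligand. Tgfb1 was the main ligand transcript of bone, Tgfb3 of MC and Tgfb2 of condylar cartilage. In Fgfr2+/+ bone the lead of Tgfb1 over Tgfb3 was narrow, at mean shares of 43.1% and 38.2%. Of the summed FPKM of the 3 ligands, Tgfb1 took a median of 54.1% in bone (38.1% to 59.8%, n = 6), Tgfb3 took 77.7% in MC (63.1% to 81.7%) and Tgfb2 took 58.8% in condylar cartilage (24.5% to 61.7%). The leading ligand was Tgfb3 in all 6 MC libraries and Tgfb1 in 4 of 6 bone libraries, the other 2 of which, both Fgfr2+/+, were led by Tgfb3. Tgfb2 led in 5 of 6 condylar libraries, and Tgfb3 led in Fgfr2+/S252W replicate 3. The ligands summed to a median of 34.5 FPKM in bone, 48.7 in condylar cartilage and 69.5 in MC. The ranges of bone (29.1 to 39.3), condylar cartilage (42.3 to 57.3) and MC (58.1 to 84.8) did not overlap, but this rests on TMM scaling. Relative to the total count the sums overlapped, at medians of 47.7 (40.9 to 51.0), 53.0 (44.1 to 62.3) and 46.3 (35.1 to 62.6) in the same order. The shares do not depend on the scaling.

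**Figure D2:**
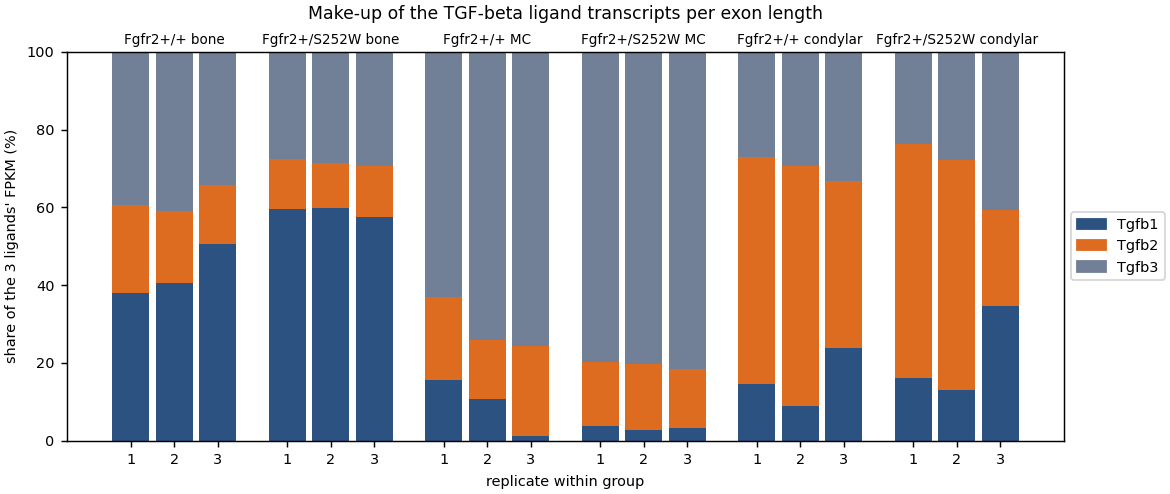
Share of Tgfb1, Tgfb2 and Tgfb3 in the summed FPKM of the 3 ligands, as 1 stacked bar per library, grouped by genotype and tissue. Tgfb3 takes at least 63.1% in each MC library, and Tgfb2 takes the largest part in 5 of the 6 condylar libraries.

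Tgfb1 (chr7:25687002-25705077, plus strand, mm10), the ligand most abundant in bone matrix, had between 29.1 and 45.9 normalized counts in bone, with a median of 37.8. In condylar cartilage it was between 9.30 and 37.5 with a median of 15.3, and in MC between 2.06 and 19.6 with a median of 4.97. Bone and MC did not overlap, whereas condylar cartilage overlapped both. Tgfb1 was 5.16-fold higher in bone than in MC (log2 2.37 ± 0.44 SE, adjusted p = 0.000189 in limma), in 6 of 6 embryos. The log2 difference was 1.65 in Fgfr2+/+ embryos alone (adjusted p = 0.0262) and 3.09 in Fgfr2+/S252W embryos alone (adjusted p = 0.00182). It was 2.21-fold higher in bone than in condylar cartilage (1.14 ± 0.30, adjusted p = 0.00303, 5 of 6 embryos) and 2.34-fold higher in condylar cartilage than in MC (1.22 ± 0.47, adjusted p = 0.0322, 4 of 6 embryos). The last call was lost in 5 of 12 fits without 1 library (any Fgfr2+/S252W MC library, Fgfr2+/+ MC replicate 3 or Fgfr2+/+ condylar replicate 3, log2 difference 0.83 to 1.28), in the 12 libraries of these 2 tissues alone (1.203, adjusted p = 0.0715) and in Fgfr2+/+ embryos alone (0.60, adjusted p = 0.434), although not in Fgfr2+/S252W embryos alone (1.85, adjusted p = 0.0483). The bone against condylar call was lost with edgeR (adjusted p = 0.0552), with DESeq2 (adjusted p = 0.115) and in Fgfr2+/+ embryos alone (1.05, adjusted p = 0.0599). In MC these levels rest on 11 to 211 fragments per library. Within condylar cartilage the libraries highest in Tgfb1, at 37.5 and 29.9, were also those highest in osteoblast markers, at 19007 and 12166, and the part of bone cells in this was not tested.

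Tgfb2 (chr1:186623186-186705992, minus strand), the ligand that binds the signalling receptors poorly without betaglycan, was lowest in bone, where Tgfb1 was highest. It was between 57.3 and 139 normalized counts in condylar cartilage (median 119.8), between 47.8 and 93.2 in MC (58.2) and between 18.1 and 41.6 in bone (23.1). Bone was below the other tissues in all libraries. Tgfb2 was 4.56-fold lower in bone than in condylar cartilage (-2.19 ± 0.18, adjusted p = 2.77e-09) and 2.42-fold lower than in MC (-1.27 ± 0.20, adjusted p = 2.25e-05), in 6 of 6 embryos each. It was 1.89-fold higher in condylar cartilage than in MC (0.92 ± 0.18, adjusted p = 0.000224, 6 of 6 embryos), where the library at 57.3, Fgfr2+/S252W condylar replicate 3, gave the overlap. Relative to the total count of a library, the difference between bone and MC was -0.22 (adjusted p = 0.429).

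Tgfb3 (chr12:86056744-86079041, minus strand) was the most abundant of the 10 transcripts per length in MC, at a median of 56.2 FPKM. It had 124 to 217 normalized counts there (median 190.1), against 28.8 to 52.5 in bone (37.6) and 34.5 to 68.4 in condylar cartilage (46.5). Its MC libraries were all above those of the other tissues, and bone and condylar cartilage overlapped. Tgfb3 was 4.70-fold lower in bone than in MC (-2.23 ± 0.16, adjusted p = 2.02e-09) and 3.75-fold lower in condylar cartilage than in MC (-1.91 ± 0.16, adjusted p = 6.50e-09), in 6 of 6 embryos each. Between bone and condylar cartilage it did not pass (-0.33, 95% interval -0.68 to 0.030, adjusted p = 0.124), although it passed without Fgfr2+/S252W condylar replicate 1 (adjusted p = 0.0482).

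The receptors were distributed unlike one another. Tgfbr1 was highest in bone, whereas Tgfbr2 and Tgfbr3 were highest in MC, and all 3 were lowest in condylar cartilage. Tgfbr1 (chr4:47353222-47414931, plus strand), the type I receptor kinase, had 154 to 248 normalized counts in bone (median 217), 57.6 to 118 in MC (70.4) and 34.4 to 45.3 in condylar cartilage (37.1). The 3 tissues did not overlap. Tgfbr1 was 5.35-fold higher in bone than in condylar cartilage (2.42 ± 0.15, adjusted p = 4.80e-11) and 2.75-fold higher than in MC (1.46 ± 0.15, adjusted p = 1.29e-07). It was 1.95-fold lower in condylar cartilage than in MC (-0.96 ± 0.16, adjusted p = 4.43e-05), but relative to the total count this difference was -0.17 (adjusted p = 0.580).

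Tgfbr2 (chr9:116087698-116175363, minus strand), the type II receptor kinase that binds the ligand, had 49.0 to 111 normalized counts in MC (median 103), 48.9 to 74.4 in bone (63.8) and 22.8 to 32.4 in condylar cartilage (26.9). Condylar cartilage was below the other tissues in all libraries. Tgfbr2 was 3.27-fold lower in condylar cartilage than in MC (-1.71 ± 0.17, adjusted p = 5.96e-08) and 2.31-fold higher in bone than in condylar cartilage (1.21 ± 0.17, adjusted p = 4.06e-06), in 6 of 6 embryos each. Between bone and MC it was 1.41-fold lower in bone (-0.50 ± 0.15, adjusted p = 0.0108, 6 of 6 embryos), which turned to 0.53 higher in bone (adjusted p = 0.0130) relative to the total count and did not pass in Fgfr2+/+ embryos alone (-0.42, adjusted p = 0.159). The ranges of bone and MC overlapped through Fgfr2+/+ MC replicate 1, at 49.0.

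Per length, Tgfbr1 exceeded Tgfbr2 in each bone library, by 1.83 to 2.91 times with a median ratio of 2.44. In MC the median ratio was 0.490 (0.461 to 1.80) and in condylar cartilage 1.01 (0.865 to 1.36). The highest ratio of MC was that of Fgfr2+/+ replicate 1, and it lay just below the range of bone.

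Tgfbr3 (chr5:107106570-107289629, minus strand), the coreceptor betaglycan, had the widest spread over tissues among the receptors. It had 27.6 to 110.0 normalized counts in MC (median 88.7), 15.3 to 27.9 in bone (21.9) and 1.41 to 6.67 in condylar cartilage (2.76). The condylar levels rest on 17 to 52 fragments per library and lay below those of the other tissues throughout. Tgfbr3 was 27.0-fold lower in condylar cartilage than in MC (-4.76 ± 0.46, adjusted p = 3.38e-08) and 8.29-fold higher in bone than in condylar cartilage (3.05 ± 0.47, adjusted p = 1.53e-05), in 6 of 6 embryos each. It was 3.26-fold lower in bone than in MC (-1.70 ± 0.27, adjusted p = 2.77e-05, 6 of 6 embryos), or by -0.69 relative to the total count (adjusted p = 0.0156), with an overlap given by Fgfr2+/+ MC replicate 1. Condylar cartilage thus had the highest Tgfb2 and the lowest Tgfbr3 of the 3 tissues. Markers of perichondrium, tendon and fibroblast (7 genes, summed) were at 412 to 483 normalized counts in bone, 45.4 to 220 in MC and 21.1 to 93.6 in condylar cartilage, with Fgfr2+/+ replicate 1 the lowest of MC, and their part in the level of Tgfbr3 was not tested.

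**Figure D3:**
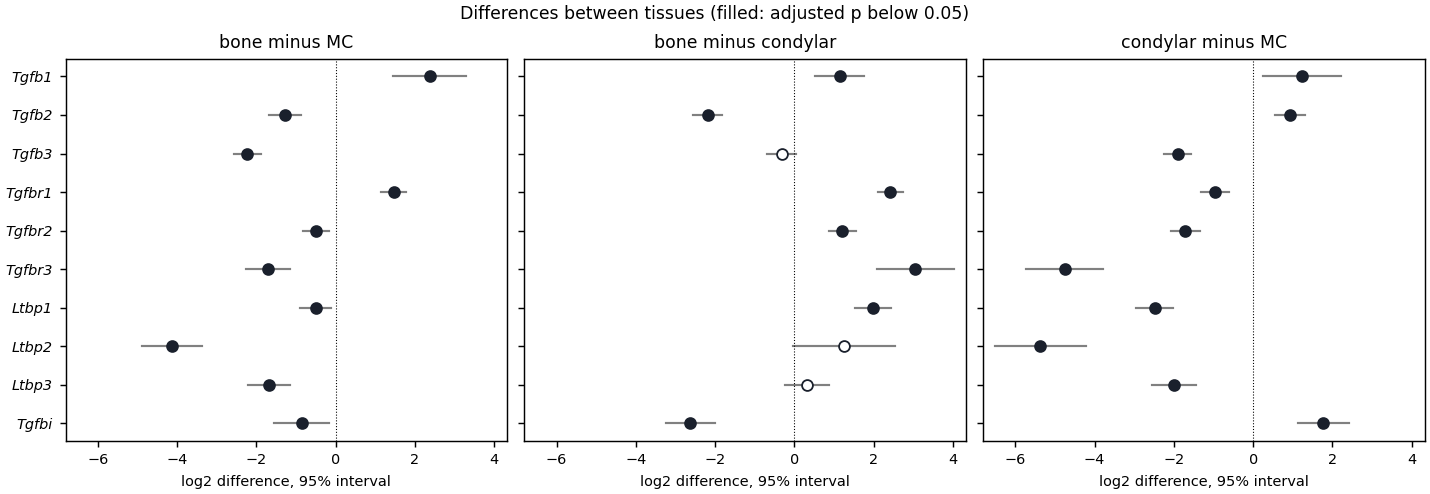
Log2 differences between tissues with 95% intervals (6 embryos, embryo as a block), for bone minus MC, bone minus condylar cartilage and condylar cartilage minus MC, with filled points at an adjusted p below 0.05 (Ltbp2, which entered its fit through MC, is shown for its size and not as a test against MC). Tgfb1 lies right of 0 in all 3 panels, and the 3 latent binding proteins lie left of 0 in bone minus MC and in condylar minus MC, but Ltbp1, Tgfbr2 and Tgfbi turn to the right in bone minus MC when counts are scaled to the library total.

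The 3 latent binding proteins had their highest median in MC. Ltbp1 (chr17:75005568-75391767, plus strand), which tethers latent ligand to the matrix, had 51.4 to 148 normalized counts in MC (median 101), 49.0 to 82.4 in bone (70.9) and 11.9 to 33.0 in condylar cartilage (15.5). It was 5.57-fold lower in condylar cartilage than in MC (-2.48 ± 0.22, adjusted p = 1.29e-08) and 3.94-fold higher in bone than in condylar cartilage (1.98 ± 0.22, adjusted p = 2.04e-07), in 6 of 6 embryos each. Between bone and MC it was 1.41-fold lower in bone (-0.50 ± 0.19, adjusted p = 0.0312), in 4 of 6 embryos. That call was lost in 7 of 12 fits without 1 library (replicate 1 or 2 of Fgfr2+/S252W bone or MC, replicate 2 of Fgfr2+/+ bone, or replicate 2 or 3 of Fgfr2+/+ MC, adjusted p up to 0.0906), with edgeR (-0.54, adjusted p = 0.0524) and in Fgfr2+/+ embryos alone (-0.091, adjusted p = 0.823), and relative to the total count the sign turned (0.54, adjusted p = 0.0239).

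Ltbp2 (chr12:84783212-84876532, minus strand), which binds fibrillin and not the latent ligand, was far higher in MC than in the other tissues. It had 27.2 to 85.1 normalized counts there (median 65.9), against 1.39 to 6.32 in bone (3.10) and 0.722 to 1.61 in condylar cartilage (1.44). The condylar values rest on 6 to 24 fragments per library. In the fit with filterByExpr, in which 49.1%, 50% and 55.3% of genes passed for bone against MC, bone against condylar cartilage and condylar cartilage against MC, the log2 difference of Ltbp2 was -4.12 for bone against MC and -5.37 for condylar cartilage against MC. Both are descriptions with no test, since its level in MC brought it into the fit. Between bone and condylar cartilage it did not pass (1.25, 95% interval -0.029 to 2.52, adjusted p = 0.0977).

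Ltbp3 (chr19:5740904-5758532, plus strand), which binds the latent ligand, had 88.3 to 243 normalized counts in MC (median 199), 37.7 to 67.9 in bone (59.5) and 30.0 to 109 in condylar cartilage (40.1). It was 3.18-fold lower in bone (-1.67 ± 0.25, adjusted p = 1.97e-05, or -0.63 relative to the total count, adjusted p = 0.0192) and 3.97-fold lower in condylar cartilage (-1.99 ± 0.27, adjusted p = 2.44e-06) than in MC, in 6 of 6 embryos each, though condylar cartilage and MC overlapped through the libraries at 109 and 88.3. Between bone and condylar cartilage the difference was 0.32 (95% interval -0.24 to 0.88, adjusted p = 0.345), and without Fgfr2+/S252W condylar replicate 3, whose level was 109, it was 0.56 and passed (adjusted p = 0.0467), as it did without the pair of libraries that stood apart (0.56, adjusted p = 0.00236). The counts of Ltbp3 are less certain than those of the other genes, since strand was not used in counting.

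Tgfbi (chr13:56609603-56639339, plus strand), an extracellular adhesion protein, was the most abundant of the 10 transcripts per length in condylar cartilage, at a median of 61.9 FPKM. It had 116 to 217 normalized counts there (median 166), 14.8 to 105 in MC (67.4) and 19.5 to 36.1 in bone (29.4). Condylar cartilage did not overlap the other tissues, while MC overlapped bone through Fgfr2+/+ replicate 1, at 14.8. Tgfbi was 6.16-fold lower in bone than in condylar cartilage (-2.62 ± 0.29, adjusted p = 2.60e-07) and 3.41-fold higher in condylar cartilage than in MC (1.77 ± 0.31, adjusted p = 5.56e-05), in 6 of 6 embryos each. It was 1.81-fold lower in bone than in MC (-0.85 ± 0.33, adjusted p = 0.0388, 5 of 6 embryos). The last call was lost in 9 of 12 fits without 1 library (log2 difference -0.88 to -0.57), which were all but those without Fgfr2+/S252W bone replicate 2, Fgfr2+/S252W MC replicate 3 or Fgfr2+/+ MC replicate 1. It was -1.37 without the last of these, came to -1.36 without the pair of libraries that stood apart (adjusted p = 3.14e-07), and turned to 0.12 (adjusted p = 0.711) relative to the total count. It was also lost in Fgfr2+/+ embryos alone (-0.35, adjusted p = 0.599), against -1.36 in Fgfr2+/S252W embryos alone (adjusted p = 0.0297).

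Relative to the total count, the log2 differences of the 9 genes from MC shifted upwards by 0.97 to 1.18 for bone and by 0.66 to 0.93 for condylar cartilage, which is over 1.5 times as a fold for each. Among those that passed in the same direction on both scales, bone against MC became 3.55 for Tgfb1, 2.55 for Tgfbr1 and -1.18 for Tgfb3. Condylar cartilage against MC became 2.16 for Tgfb1, 1.65 for Tgfb2 and 2.43 for Tgfbi, and it became -1.13 for Tgfb3, -0.97 for Tgfbr2, -3.98 for Tgfbr3, -1.69 for Ltbp1 and -1.21 for Ltbp3.

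Ranked per length, the order of the 10 genes differed between tissues. In bone Tgfbr1 came first at 33.8 FPKM and did not overlap Tgfb1 at 17.4, and the next places down to Ltbp1 at 10.2 overlapped their neighbours. Ltbp3, Tgfb3, Tgfbi and Ltbp1 were within 10.2 to 11.5 FPKM there, and 3 to 5 of 6 libraries kept each step of that order. In MC, the order opened with Tgfb3 at 56.2, Ltbp3 at 38.3 and Tgfbi at 25.2 FPKM and closed with Tgfb1 at 2.28. All neighbours in the MC order overlapped in range. In condylar cartilage Tgfbi at 61.9 FPKM did not overlap Tgfb2 at 25.4, and Tgfbr2 at 5.63 did not overlap Ltbp1 at 2.23, which did not overlap Tgfbr3 at 0.437. Ltbp2 was last in bone and in condylar cartilage, at 0.458 and 0.213 FPKM.

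The second question is whether the S252W allele changed these genes in any tissue. None of the 10 genes passed between Fgfr2+/S252W and Fgfr2+/+ embryos in the limma fit of all 18 libraries, whichever tissue was taken, though the outcome in bone depended on the fit. Of all genes tested, 0.0872% passed in bone and 0% in either cartilage. At an unadjusted p below 0.05 there were 2 of the 9 genes of the filtered set in bone (Tgfb2 and Tgfb3), 2 in MC (Ltbp1 and Tgfbr2) and 0 in condylar cartilage, against 8.13%, 15.4% and 3.06% of all genes. Without the pair of libraries that stood apart, Tgfb2, Tgfb3 and Tgfbi (lower) and Tgfbr1, Tgfbr2 and Ltbp3 (higher) were below it in bone. In MC these were Tgfb2, Tgfbi and Ltbp1, and in condylar cartilage Tgfb3, Tgfbi and Ltbp3. The share of all genes below it was not taken in that fit. After adjustment 0 of the 9 genes passed in any tissue there, while 84 of 11522 genes passed in bone and 0 in either cartilage. With edgeR and with DESeq2 the count of these 9 past the threshold was likewise 0 in each tissue.

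In bone, Tgfb2 had 41.6, 28.6 and 25.5 normalized counts in the Fgfr2+/+ embryos and 20.8, 19.2 and 18.1 in the Fgfr2+/S252W embryos. The genotypes did not overlap, and the log2 difference was -0.68 ± 0.27 (95% interval -1.24 to -0.12, adjusted p = 0.502 in limma). Tgfb3 had 52.5, 45.6 and 41.1 normalized counts in Fgfr2+/+ bone and 31.4, 34.1 and 28.8 in Fgfr2+/S252W bone. These did not overlap either, and the difference was -0.55 ± 0.23 (-1.04 to -0.062, adjusted p = 0.561). Tgfbi had 36.1, 34.0 and 29.6 against 20.2, 29.1 and 19.5, again without overlap, and the difference was -0.54 ± 0.44 (adjusted p = 0.847). Tgfbr2 and Ltbp3 were without overlap in the other direction, with differences of 0.32 (adjusted p = 0.757) and 0.36 (adjusted p = 0.878). In all, 5 of the 9 genes had bone libraries that did not overlap between genotypes, as had 20.4% of the genes tested. Tgfb1 had 32.6, 29.1 and 39.1 normalized counts in Fgfr2+/+ bone and 43.8, 45.9 and 36.5 in Fgfr2+/S252W bone, which overlapped, with a difference of 0.32 (-0.42 to 1.07, adjusted p = 0.905). The errors of this fit are pooled over the 3 tissues. In the 6 bone libraries alone they were smaller, with Tgfb2 at -0.69 ± 0.18 (adjusted p = 0.102 in limma). Tgfb3 was at -0.56 ± 0.14 there (adjusted p = 0.0842) and Tgfbi at -0.56 ± 0.17 (adjusted p = 0.155). In the other direction Tgfbr2 was at 0.31 ± 0.13 (adjusted p = 0.278) and Ltbp3 at 0.36 ± 0.16 (adjusted p = 0.304). None of the 9 genes passed in those libraries alone.

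Within the ligands of bone, Tgfb1 took 38.1%, 40.7% and 50.6% of the summed FPKM in Fgfr2+/+ embryos and 59.5%, 59.8% and 57.6% in Fgfr2+/S252W embryos. The means were 43.1% ± 6.60 (SD, n = 3) and 59.0% ± 1.21 (SD, n = 3). The exact two-sided permutation test gave p = 0.1, the smallest that 3 against 3 embryos allow (adjusted p = 0.225 over 9 such shares). The shares of Tgfb2 and Tgfb3 in bone, at means of 18.7% and 38.2% in Fgfr2+/+ and 12.6% and 28.4% in Fgfr2+/S252W embryos, had the same exact permutation p, and so had Tgfb3 in MC, at 63.1%, 74.0% and 75.6% against 79.7%, 80.2% and 81.7%. Osteoclast markers (7 genes, summed) were at 907 to 1171 normalized counts in Fgfr2+/+ bone and at 1685 to 2336 in Fgfr2+/S252W bone. Macrophage markers (6 genes) were at 118 to 145 and 196 to 269, and erythroid markers (6 genes) at 1257 to 1506 and 315 to 597. Chondrocyte markers were at 91.5 to 239 and 287 to 388, skeletal muscle markers (6 genes) at 125 to 707 and 56.4 to 124, and smooth muscle and pericyte markers (6 genes) at 169 to 206 and 147 to 153, all without overlap. Those of perichondrium, tendon and fibroblast (7 genes) were at 412 to 444 and 443 to 483. They overlapped, as did the lists of osteoblasts, hypertrophic chondrocytes, endothelium, and Schwann cells and neurons. Gm42418 took 8.57% to 9.33% and 5.58% to 6.49% of counts, and mitochondrial genes took 36.0%, 34.8% and 20.4% against 23.4% to 23.6%. The part of these cells and of library composition in the bone values was not tested.

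**Figure D4:**
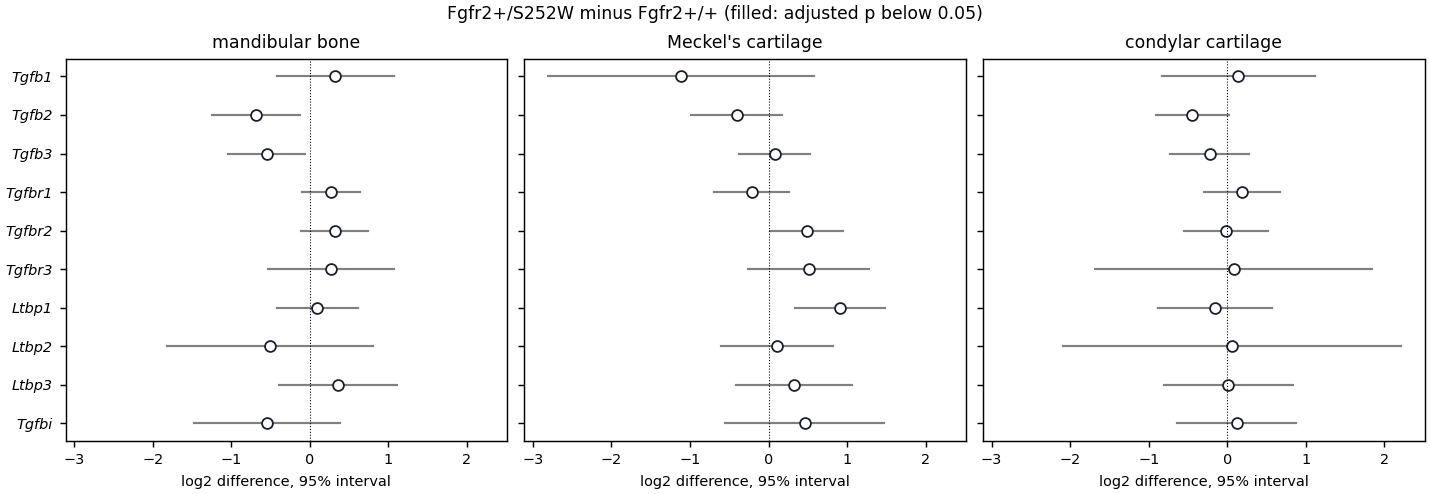
Log2 differences of Fgfr2+/S252W minus Fgfr2+/+ embryos in each tissue with 95% intervals (3 against 3 embryos); open points are above an adjusted p of 0.05. All 30 points are open, and the intervals of Tgfb2 and Tgfb3 in bone and of Ltbp1 and Tgfbr2 in MC leave out 0 before adjustment.

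In MC, Ltbp1 had 51.4, 91.8 and 81.6 normalized counts in Fgfr2+/+ embryos and 143, 148 and 109 in Fgfr2+/S252W embryos. The genotypes did not overlap, with a difference of 0.91 ± 0.27 (0.34 to 1.48, adjusted p = 0.142), and without Fgfr2+/+ MC replicate 1 and the condylar library it was 0.63 (adjusted p = 0.215). Smooth muscle and pericyte markers were at 120 to 223 normalized counts in Fgfr2+/+ MC and 238 to 324 in Fgfr2+/S252W MC, those of perichondrium, tendon and fibroblast at 45.4 to 193 and 201.9 to 219.8, macrophage markers at 34.7 to 59.3 and 70.2 to 112, and osteoclast markers at 89.2 to 247 and 64.0 to 70.4. These 4 lists did not overlap between genotypes. The lists of osteoblasts, chondrocytes, hypertrophic chondrocytes, endothelium, skeletal muscle, erythroid cells, and Schwann cells and neurons did. The part of any of these cells in the differences in MC was not tested. Tgfb2 also did not overlap, at 58.7, 60.6 and 93.2 against 50.4, 57.6 and 47.8, with a difference of -0.40 (adjusted p = 0.501). These were 2 of the 9 genes, and 13.4% of the genes tested had MC libraries without overlap. Tgfbr2 had 49.0, 93.2 and 107 in Fgfr2+/+ MC and 99.8, 111 and 107 in Fgfr2+/S252W MC, and its difference of 0.48 ± 0.23 (adjusted p = 0.310) was 0.091 without the pair of libraries. The differences of Tgfbi, Tgfbr3, Ltbp3 and Tgfb3 in MC, at 0.46, 0.51, 0.32 and 0.077, turned to -0.58, -0.21, -0.16 and -0.20 without that pair. None passed in either case. Tgfb1 had 19.6, 19.3 and 2.06 normalized counts in Fgfr2+/+ MC and 5.21, 4.50 and 4.73 in Fgfr2+/S252W MC, so that the spread within the controls was wider than the difference of -1.11 (95% interval -2.81 to 0.58).

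In condylar cartilage, none of the 10 genes was without overlap between genotypes, as against 9.77% of the genes tested. With all 18 libraries the differences were between -0.44, for Tgfb2, and 0.19, for Tgfbr1. Tgfb2 had 137, 139 and 116 normalized counts in Fgfr2+/+ embryos and 121.6, 118 and 57.3 in Fgfr2+/S252W embryos (adjusted p = 0.998), and without the libraries that stood apart its difference was -0.12. Others grew without those libraries, Tgfb3 from -0.23 to -0.48, Ltbp1 from -0.15 to -0.52 and Tgfbi from 0.12 to 0.39. Ltbp3 turned from 0.015 to -0.50, Tgfb1 from 0.14 to -0.26 and Tgfbr3 from 0.082 to -0.37. None of the 9 genes of the filtered set passed in that fit. Osteoclast markers were at 12.4 to 18.2 and 12.8 to 28.5 normalized counts in the condylar cartilage of the 2 genotypes. The widest 95% intervals were -1.82 to 0.80 in bone and -2.09 to 2.21 in condylar cartilage, both of Ltbp2, and -2.81 to 0.58 in MC, of Tgfb1. Others were far narrower, such as -0.098 to 0.64 for Tgfbr1 in bone.

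None of the 10 genes passed the test of a genotype effect that differs between tissues, with 95% intervals that reached from -3.13 to 3.29. For bone against MC, 0 of the 9 genes of the filtered set passed, and 0.0523% of all genes did. For bone against condylar cartilage and for condylar cartilage against MC 0 of the 9 and 0% of all genes passed, with 0 of the 9 also in edgeR and DESeq2 for each of the 3. At an unadjusted p below 0.05 there was 1 of the 9 genes for bone against MC, 0 for bone against condylar cartilage and 1 for condylar cartilage against MC, as were 10.5%, 2.82% and 9.22% of all genes. In both cases this was Ltbp1, whose effect in MC was above that in bone (-0.82 ± 0.37, 95% interval -1.59 to -0.040, adjusted p = 0.456) and that in condylar cartilage (-1.07 ± 0.45, -2.002 to -0.13, adjusted p = 0.493). Without the pair of libraries that stood apart these differences were -0.52 (adjusted p = 0.486) and -1.14 (adjusted p = 0.307) in limma, and the interval of the first then held 0. They ranged from -1.02 to -0.52 and from -1.44 to -0.78 without 1 library, where Fgfr2+/+ MC replicate 1 gave the end nearest 0 of both, and the first was -0.49 relative to the total count (adjusted p = 0.840).

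Other genes of the pathway, from lists by role, also differed between tissues, and their counts stand against 25% higher and 23.4% lower of all genes for bone against condylar cartilage, 28.3% and 27.6% for condylar cartilage against MC, and 26.3% and 24.1% for bone against MC. All the lists were taken with TMM scaling alone. Relative to the total count the median of all genes moves by 1.07 in bone against MC and 0.77 in condylar cartilage against MC. It moves by 0.30 in bone against condylar cartilage. Counts, calls and signs against MC can thus depend on the scaling, which was not tested for these lists. Of 14 genes measured whose products store or activate latent TGF-beta, 10 were higher and 3 lower in bone than in condylar cartilage, 2 were higher and 8 lower in condylar cartilage than in MC, and 4 were higher and 5 lower in bone than in MC. Their median log2 differences were 1.27, -0.94 and -0.16. Fbn1, the fibrillin to which latent complexes bind, had medians of 248 normalized counts in MC, 42.1 in bone and 8.21 in condylar cartilage, and it was lower in condylar cartilage than in MC by -4.85 ± 0.24 (adjusted p = 2.71e-12) and in bone than in MC by -2.41 ± 0.16 (adjusted p = 1.11e-09). Fbn2, its fetal relative, was lower in condylar cartilage than in MC by -7.13 ± 0.60 (adjusted p = 4.89e-09). These had the same order of tissues as Tgfbr3 and Ltbp2. Mmp14, a membrane protease, was lower in condylar cartilage than in MC by -2.13 (adjusted p = 4.91e-11). Itgav, the alpha chain of the integrins that release latent ligand, was higher in bone than in MC (1.45, adjusted p = 1.18e-08) and than in condylar cartilage (1.67, adjusted p = 2.97e-10). Mmp9, a protease of osteoclasts, was higher in bone than in MC by 3.42 and than in condylar cartilage by 9.01. Thbs1, an activator of latent ligand, had the reverse order, with medians of 969 normalized counts in condylar cartilage and 83.0 in bone (-3.33 ± 0.27, adjusted p = 2.89e-09).

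Of the 6 other receptors and matrix binders, 5 were higher in bone than in condylar cartilage and 5 were lower in condylar cartilage than in MC, while 1 was higher and 1 lower in bone than in MC. Dcn, a proteoglycan that binds the ligand, was higher in bone than in MC (3.09, adjusted p = 2.02e-09) and than in condylar cartilage (3.72, adjusted p = 3.53e-11). Aspn, a related proteoglycan, was lower in condylar cartilage than in MC by -7.05 and than in bone, where the difference was 6.08. Bgn was higher in bone than in condylar cartilage (1.13) and Acvrl1, a type I receptor of endothelium, was lower in condylar cartilage than in MC (-1.80). Endothelial markers (6 genes) were at 200 to 270 normalized counts in bone, 20.6 to 87.6 in MC and 5.62 to 25.1 in condylar cartilage, and their part in the level of Acvrl1 was not tested.

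The transducers and inhibitors were mixed in direction. Of 12, 4 were higher and 2 lower in bone than in MC, 5 higher and 2 lower in bone than in condylar cartilage, and 2 higher and 5 lower in condylar cartilage than in MC, with median differences of -0.025, 0.24 and -0.24. With TMM scaling Smad2 and Smad4 passed in none of these comparisons, with differences between -0.23 and 0.23, and those with MC rest on that scaling. Smad3 was higher in bone than in MC (1.30, adjusted p = 3.17e-05) and than in condylar cartilage (1.47, adjusted p = 1.86e-06). Ski, a repressor of Smad activity, was lower in condylar cartilage than in MC (-2.09 ± 0.15, adjusted p = 6.12e-10) and was lower in bone than in MC (-0.97) and higher in bone than in condylar cartilage (1.12). Skil, its relative, was higher in bone than in condylar cartilage (0.90). Bambi, a decoy receptor without kinase activity, was higher in bone (1.5) and in condylar cartilage (2.32) than in MC. Pmepa1, an inhibitor induced by TGF-beta, was lower in condylar cartilage than in MC (-1.14).

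Of 9 target genes measured, 4 were higher and 1 lower in bone than in MC, 4 higher and 4 lower in bone than in condylar cartilage, and 6 higher and 1 lower in condylar cartilage than in MC. Their median differences were 1.29, -0.23 and 1.07. Cdkn1a, an inhibitor of the cell cycle, had medians of 222 normalized counts in condylar cartilage, 162 in bone and 31.7 in MC. It was lower in MC than in both, by 2.89 ± 0.15 against condylar cartilage (adjusted p = 5.49e-12) and by 2.41 ± 0.15 against bone (adjusted p = 2.96e-10). Ccn2 was lower in bone than in condylar cartilage (-3.26 ± 0.43, adjusted p = 2.36e-06). Postn, a protein of the periosteum, was higher in bone than in condylar cartilage (1.87) and lower in condylar cartilage than in MC (-1.61). Col1a1 and Acta2, which are also markers of osteoblasts and of smooth muscle, were higher in bone than in MC by 3.01 and 2.63, and Col1a1 was higher in bone than in condylar cartilage by 2.28. Between genotypes 0 of the 41 genes on these lists that were measured passed in any tissue in the limma fit of all 18 libraries. Of all genes tested, 0.0872% passed in bone and 0% in either cartilage, and other fits were not taken for these lists. From its own test, the paper lists Aspn as lower and Itgb3 as higher in mutant mandibular bone. Here they were at -1.55 ± 0.33 (adjusted p = 0.0763) and 1.12 ± 0.31 (adjusted p = 0.251) in bone.

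The genes whose log2 levels followed each ligand most closely over the 18 libraries were, by Pearson r, Pheta2 (0.93), Ghr (0.92) and Col22a1 (0.91) for Tgfb1. For Tgfb2 they were Mgp (0.96), Lpar4 (0.95) and Asxl3 (0.95), and for Tgfb3 Dtx3 (0.98), Gabbr1 (0.98) and Rpph1 (0.97). These are the highest of 11468 genes each, and the libraries share tissue, embryo and composition, so that r describes mainly the 3 tissues.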

How the data were processed

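The authors deposited 1 table of raw counts per library, which per the file headers were made with featureCounts 1.5.0-p1 on Ensembl release 75 gene models and mm10. The counts are paired fragments on exons, without regard to strand and without fragments that map to several places or genes. The submitters' processing notes also name STAR, cutadapt, RSEM and limma. RNA had been amplified before sequencing, so that intervals and tests cover the spread between embryos and not the number of molecules captured.

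From these counts, normalized counts (CPM), FPKM and all tests were computed here in R 4.3.3. Genes had to exceed 1 FPKM in 50% or more of the 18 libraries, TMM factors were taken with edgeR 4.0.16, and voom and limma 3.58.1 were fitted over all 6 groups with Benjamini-Hochberg adjustment. Genotype effects had no block. Tissue contrasts and differences of genotype effects had the embryo as a random block (statmod 1.5.0, correlation -0.025). The embryo of a library was taken from the replicate numbers in the labels, since 3 tissues were captured per embryo, and the deviations of an embryo's libraries from their group means correlated at means of 0.019, -0.015 and -0.00017 over the 3 pairs of tissues. The replicates are separate embryos. Groups came from the labels. Tried beside this were DESeq2 1.42.0, the quasi-likelihood test of edgeR, other scalings and filters, other blocks, subsets of libraries and leaving out each library. Scaling to the total count in the tests and leaving out a pair of libraries were added after seeing the data.

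The 10 genes, the pathway and marker lists, and the rules were chosen with earlier results of these data known. All 10 genes are named, with up to 3 genes per pathway list and comparison by smallest p. A gene that this rule names is not reported here. Smad2 and Smad4 were named after their values were seen, and Itgb3 because the paper lists it in bone. For each ligand the 3 genes with the highest Pearson r are named. The fits were checked on simulated data.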

Additional observations from a re-analysis of the deposited data

How the results depend on the processing

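Of 36 results followed for single genes, 24 kept their direction and side of the threshold in every setting run, and of 815 alternatives 771 did so, 35 lost a call, 6 gained one and 3 turned sign. The 3 that turned were bone against MC scaled to the total count, for Tgfbr2 (0.53), Ltbp1 (0.54) and Tgfbi (0.12). That scaling, chosen after seeing the data, moves the median of all genes by 1.07 in bone against MC, 0.30 in bone against condylar cartilage and 0.77 in condylar cartilage against MC. The mean CPM of a tissue, summed over the 10 genes, moved when taken relative to the total count from 554 to 756 (bone), from 923 to 592 (MC) and from 497 to 552 (condylar cartilage). Without 1 library, 7 to 9 of the 9 genes passed for bone against MC, 7 to 8 for bone against condylar cartilage and 8 to 9 for condylar cartilage against MC, with 0 throughout for genotype effects and their differences. Without a filter on low values Tgfbr2, Ltbp1 and Tgfbi were not called for bone against MC (adjusted p = 0.0701, 0.124 and 0.103 in limma).

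The genotype effect in bone depended on the fit. In the 6 bone libraries alone with the replicate block, 3 of the 9 genes tested passed in limma (Tgfb2 -0.71, adjusted p = 0.0131; Tgfb3 -0.56, adjusted p = 0.0253; Tgfbi -0.56, adjusted p = 0.0481), as did 537 of 12322 genes in all, against 141 genes (1.14%) and 0 of the 9 without the block and 10 genes over all 18 libraries. Same-numbered embryos of the genotypes deviated together at mean correlations of 0.068, -0.090 and 0.13 (bone, MC, condylar), and in bone the 3 pairs were at -0.12, 0.20 and 0.12. The labels do not state what a shared number marks, and whether it marks a litter was not tested. The replicate block in the fit of 18 libraries left 0 of the 9 genes tested called in each tissue. Over all settings the number of genes called was 0 to 537 in bone, 0 to 423 in MC (the latter with DESeq2) and 0 to 7 in condylar cartilage for genotype, 0 to 68, 0 to 2 and 0 to 50 for its differences between bone and MC, bone and condylar cartilage, and condylar cartilage and MC, and 3805 to 13056, 3576 to 9291 and 4819 to 11156 for those pairs of tissues. The causes were not tested. The low counts of Tgfb1 in MC, Tgfbr3 in condylar cartilage and Ltbp2 outside MC limit what can be said of them.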

Other observations

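Fbn1, to whose product latent TGF-beta complexes are anchored, had a difference between genotypes of -0.79 ± 0.24 in bone (adjusted p = 0.312 in limma), 0.36 ± 0.22 in MC (adjusted p = 0.445) and -0.93 ± 0.41 in condylar cartilage (adjusted p = 0.998). Its differences between the effects in bone and MC (-1.15, adjusted p = 0.234) and in condylar cartilage and MC (-1.29, adjusted p = 0.410) did not pass. Aspn, a proteoglycan of the matrix that binds TGF-beta, had -1.55 ± 0.33 in bone (adjusted p = 0.0763), the lowest adjusted p of the receptors and matrix binders other than the 10 genes. Mmp9, which osteoclasts express, had 1.21 ± 0.29 in bone (adjusted p = 0.140) and -1.27 ± 0.46 in MC (adjusted p = 0.205), with a difference between these effects of 2.47 ± 0.54 (adjusted p = 0.131). None of these passed over all genes, and they were chosen after their values were seen.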
